A study of Mus musculus with 41 samples.

Results

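Calcoco2, Glrx, Cd3g and 4930550L24Rik are 4 of the 24028 gene symbols measured, and were chosen by their own FPKM: each lost nearly all of its transcript within 5 passages of a change of medium. Androgenetic haploid embryonic stem cells (AG-haESCs) are mouse stem cell lines that carry 1 genome copy, of sperm origin, here from C57BL/6 mice. The values that selected them came from 3 cell lines kept in 2i/L and the same lines 5 passages after transfer to SF/a2i/L. The levels of the 4 genes across that transfer are therefore a description, and the question tested was whether they were also low in lines that had been kept in TSa2i/L.

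RNA-seq values were available for 13 libraries. 2i/L is serum medium with LIF and inhibitors of MEK (PD0325901) and of GSK3 (CHIR99021). In a2i/L the Src inhibitor CGP77675 takes the place of PD0325901, and SF/a2i/L is the serum-free form, so the transfer changed the inhibitor and the serum together. TSa2i/L lines were derived in a2i/L with serum and then kept in SF/a2i/L. The wild-type line 2i-14 in 2i/L gave libraries at passages 18, 39 and 50. The wild-type line TSa2i-14, which per the study carries an actin-EGFP transgene, gave in TSa2i/L libraries at passages 22, 47 and 54, and TSa2i-C57 in TSa2i/L gave libraries at passages 9 and 58. The line 2i-O48 lacks the H19-DMR and the IG-DMR, and 2i-O48-TKO lacks H19 as well; each gave 1 library in 2i/L and 1 after the transfer, as did 2i-14 after the transfer. The labels state a passage for the wild-type lines in their own media alone. A wild-type line was sampled again at other passages and not derived anew, so the p-values below measure the spread between passages as much as between lines. Among wild-type cells, 2i/L was represented by 2i-14 alone, so medium and line cannot be told apart. Haploid cells were sorted from cultures on mouse embryonic fibroblast feeders, and depths of 14000000 to 22000000 fragments per library were implied by the steps between low values.

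Calcoco2 encodes NDP52, a protein known as a cargo receptor of selective autophagy. Glrx encodes glutaredoxin 1, a cytosolic enzyme that removes glutathione from protein thiols. Cd3g encodes the gamma chain of CD3, the signalling part of the T cell receptor, and is known for its place in T cells rather than in stem cells. 4930550L24Rik is a gene of the X chromosome for which RefSeq lists the synonym mage-k1; genes of the MAGE family are mostly known from germ cells and tumours. In 2i/L and a2i/L, GSK3 inhibition stabilises beta-catenin, while MEK inhibition blocks ERK signalling and Src inhibition acts on another kinase family.

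The 4 genes lie on different chromosomes (mm9, the build of the deposited values, with GENCODE gene models of the same build). Calcoco2 lies at chr11:95960640-95973278 on the minus strand and Glrx at chr13:75977316-75987599 on the plus strand. Cd3g lies at chr9:44777655-44788514 on the minus strand and 4930550L24Rik at chrX:56162537-56173481 on the plus strand. All are annotated as protein coding.

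RefSeq promoter windows of 300 bases, from 250 bases before to 50 after the gene start, were found for 3 of the 4 genes and are shown because these genes moved together across the transfer. RefSeq listed 2 windows for Glrx, and the first alone was used. Coordinates of the windows are on GRCm38.p6 and not on the build of the expression values. Each is written 5′ to 3′ on the gene's own strand, with CG dinucleotides, the sites of DNA methylation, in capitals.
Glrx, chr13:75839635-75839934, plus strand: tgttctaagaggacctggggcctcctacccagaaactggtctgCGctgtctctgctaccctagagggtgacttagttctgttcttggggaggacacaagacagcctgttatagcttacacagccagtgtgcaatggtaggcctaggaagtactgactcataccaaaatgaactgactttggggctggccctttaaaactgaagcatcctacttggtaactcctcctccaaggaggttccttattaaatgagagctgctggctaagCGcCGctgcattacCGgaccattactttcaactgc
Cd3g, chr9:44980382-44980681, minus strand: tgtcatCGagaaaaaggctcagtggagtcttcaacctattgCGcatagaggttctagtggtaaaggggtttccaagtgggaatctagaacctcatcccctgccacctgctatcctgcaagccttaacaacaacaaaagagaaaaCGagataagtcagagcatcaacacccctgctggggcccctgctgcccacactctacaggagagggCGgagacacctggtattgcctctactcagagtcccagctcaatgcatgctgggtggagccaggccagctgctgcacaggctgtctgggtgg
4930550L24Rik, chrX:58911211-58911510, plus strand: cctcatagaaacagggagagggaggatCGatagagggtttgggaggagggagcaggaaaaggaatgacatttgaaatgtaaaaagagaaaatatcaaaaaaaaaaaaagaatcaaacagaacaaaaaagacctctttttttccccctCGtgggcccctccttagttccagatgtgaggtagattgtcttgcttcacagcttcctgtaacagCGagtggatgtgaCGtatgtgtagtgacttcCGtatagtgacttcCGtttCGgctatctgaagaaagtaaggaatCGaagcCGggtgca
The Glrx and Cd3g windows held 4 CG each and the 4930550L24Rik window held 9, against a median of 7 over all 32851 windows. GC content was lowest in the 4930550L24Rik window, at 43.7%, with a median of 52.7% over all windows. Besides CG, 4 motifs were searched on both strands, and 1 match was found in the 3 windows. This was the AP-1 type motif TGANTCA in the Glrx window, starting 98 bases before the gene start, which 7.81% of all windows held. The TATA box motif TATAAA was held by 13.6% of all windows. The Ets core CCGGAA was held by 14.9% and the antioxidant response motif TGACNNNGC by 12.4%.

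Calcoco2 was the most abundant of the 4 genes in wild-type cells in 2i/L and in TSa2i/L. Its level in 2i-14 in 2i/L was 185 FPKM at passage 18, 180 at passage 39 and 129 at passage 50. The lines with deletions in 2i/L stood at 307 FPKM (2i-O48) and 64.4 FPKM (2i-O48-TKO). After the transfer it was 2.94 FPKM in 2i-14, 9.61 FPKM in 2i-O48, and 5.13 FPKM with the H19 deletion added (2i-O48-TKO). The switched cells thus kept 2.28%, 3.13% and 7.97% of the level their line had in 2i/L, with 2i-14 passage 50 as the wild-type control. In bulk RNA, fewer cells with the transcript and less of it per cell cannot be told apart. In TSa2i/L the level lay between these extremes. It was 45.6, 44.4 and 52.9 FPKM in TSa2i-14 at passages 22, 47 and 54, and 31.0 and 56.98 FPKM in TSa2i-C57 at passages 9 and 58. All 5 TSa2i/L libraries lay below every 2i/L library, and above every switched library.

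Glrx varied more among libraries of 1 medium. In 2i-14 in 2i/L it was 23.6 FPKM at passage 18, 59.9 at passage 39 and 53.8 at passage 50. 2i-O48 reached 178 FPKM in 2i/L, with 2i-O48-TKO at 95.2 FPKM. After the transfer the 2i-14 cells held 3.48 FPKM and the 2i-O48 cells 1.30, with 8.39 FPKM for 2i-O48-TKO. These are 6.47%, 0.729% and 8.81% of the levels before it. In TSa2i/L it was 15.1, 16.7 and 47.7 FPKM in TSa2i-14 at passages 22, 47 and 54, and 5.85 and 24.9 FPKM in TSa2i-C57 at passages 9 and 58. The TSa2i/L libraries overlapped both other groups, since 3 of 5 lay below all 2i-14 libraries in 2i/L and 4 of 5 lay above all switched ones.

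Cd3g was 36.0 FPKM in 2i-14 at passage 18, 30.1 at passage 39 and 16.7 at passage 50. 2i-O48 was at 52.3 FPKM in 2i/L, with 2i-O48-TKO at 26.8 FPKM. After the transfer it was 0.249 FPKM in 2i-14, a value that corresponds to about 4 fragments. It was 1.50 FPKM in switched 2i-O48, and 0.849 FPKM remained in 2i-O48-TKO. The remaining shares were 1.50%, 2.87% and 3.17%. In TSa2i/L it was 6.67, 14.5 and 18.4 FPKM in TSa2i-14 at passages 22, 47 and 54, but 3.52 and 3.62 FPKM in TSa2i-C57 at passages 9 and 58. Every TSa2i/L library was above every switched library, and only TSa2i-14 passage 54 was above the lowest 2i/L library.

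4930550L24Rik was the lowest of the 4 genes in wild-type cells. It was 5.15 FPKM in 2i-14 at passage 18, 7.10 at passage 39 and 6.51 at passage 50. 2i-O48 was at 59.5 FPKM in 2i/L, with 2i-O48-TKO at 17.5 FPKM. After the transfer it was listed at 0 in 2i-14 and in 2i-O48, where 3 fragments would have given 0.0982 and 0.104 FPKM. It was 0.164 FPKM, about 4 fragments, in switched 2i-O48-TKO. In TSa2i/L it was 0.623, 0.389 and 1.74 FPKM in TSa2i-14 at passages 22, 47 and 54, and 0.653 and 0.508 FPKM in TSa2i-C57 at passages 9 and 58. These values correspond to between 9.69 and 43.6 fragments, so the gene was detected in every TSa2i/L library, at a level under 2i/L. The floors and fragment numbers cover counting error only.

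**Figure D1:**
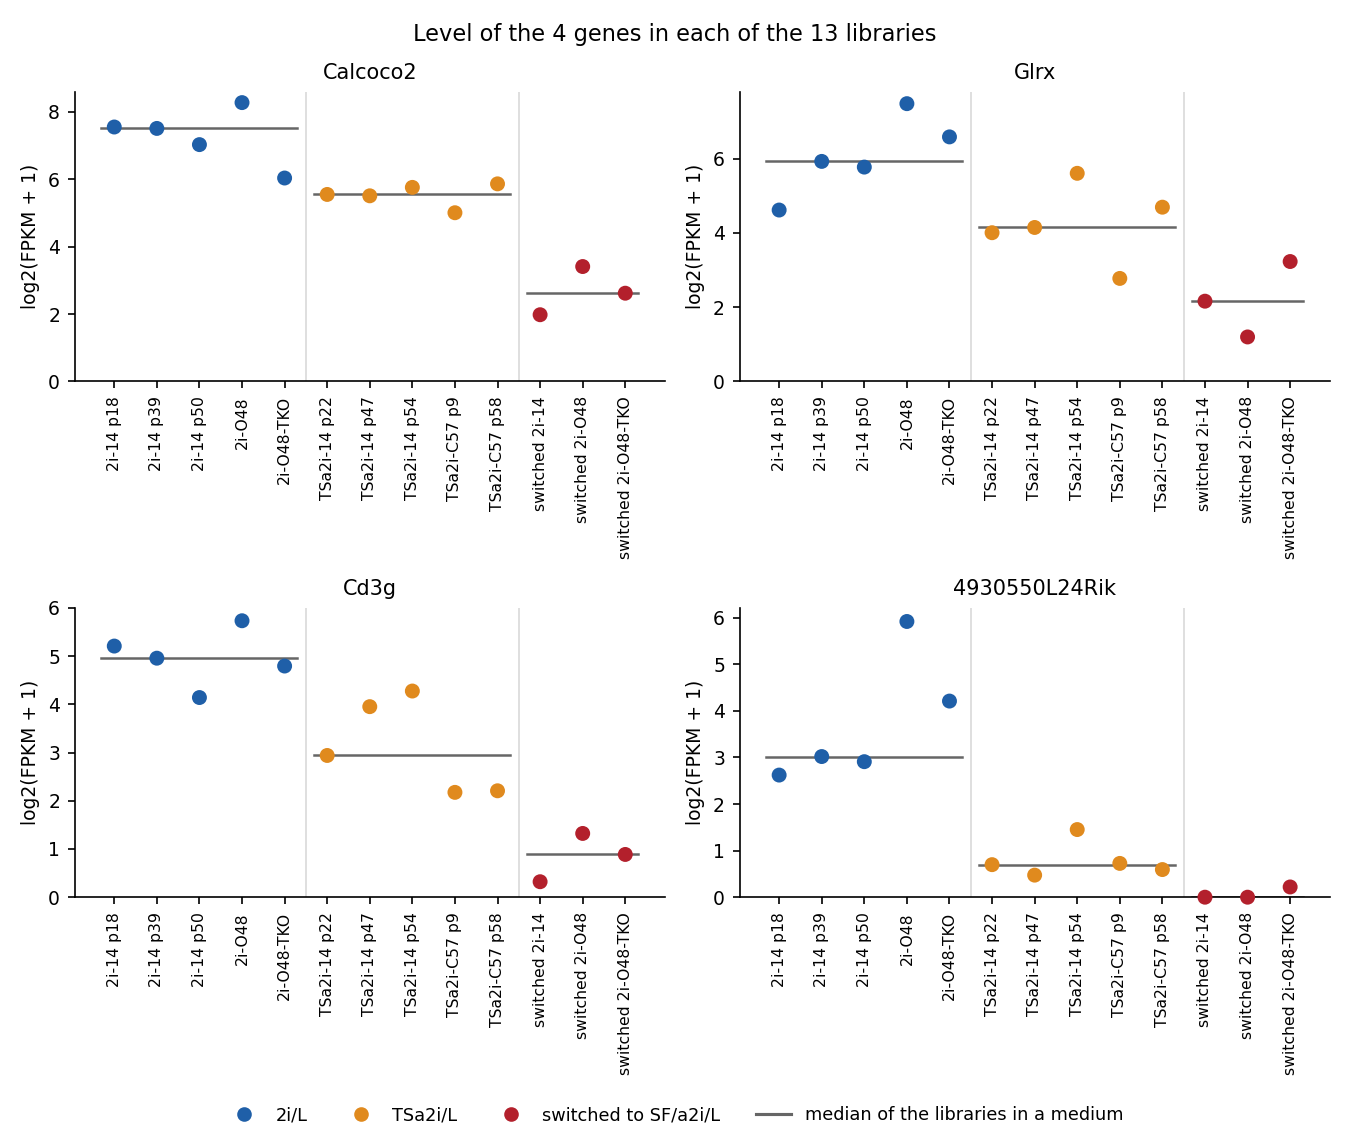
Each point is 1 library, with log2(FPKM + 1) on the y axis, libraries along the x axis coloured by medium, and a line at the median of each medium. The 3 switched libraries lie lowest for Calcoco2, Cd3g and 4930550L24Rik, with the 5 TSa2i/L libraries between them and most or all 2i/L libraries; for Glrx the TSa2i/L points reach into both other groups.

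Across the transfer, 201 of 9759 genes, 2.06%, were lower by a log2(FPKM + 1) difference of at least 1 in all 3 lines, and the 4 genes are among them because the choice was made there. Ordered by the smallest of the 3 differences, Cd3g stood 1st at -3.82, Calcoco2 6th at -3.41, Glrx 7th at -3.36 and 4930550L24Rik 12th at -2.91. The others of these 12 genes were Obox6, Pramel6, Pramel7, Spic, Crxos, Crygd, Stk33 and Aspa, and Ceacam10 came next at -2.89. The 4 genes are thus a selection from a longer run. With 2i-14 passage 18 or 39 as the wild-type control, the log2 differences in switched 2i-14 were -5.56 and -5.52 for Calcoco2, and -2.45 and -3.76 for Glrx. For Cd3g they were -4.89 and -4.64, and for 4930550L24Rik -2.62 and -3.02. With either control all 4 genes remained more than 1 log2 lower in every line.

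The test in libraries that the choice had not used set the 5 TSa2i/L libraries against 2i-14 at passages 18 and 39. It asked whether the genes were low in established lines of the other medium, and was made with limma on log2(FPKM + 1) over 10755 genes. The mean Calcoco2 level was 46.2 ± 9.94 FPKM (SD, n = 5) in TSa2i/L and 183 ± 3.79 (SD, n = 2) in 2i-14, or 3.96-fold lower. Its log2 difference was -1.99 ± 0.23 (SE), with a limma adjusted p of 0.00246. The mean Cd3g level was 9.34 ± 6.75 FPKM in TSa2i/L and 33.1 ± 4.19 in 2i-14, a log2 difference of -1.97 ± 0.54 with an adjusted p of 0.0725. The size of the Cd3g difference was close to that of Calcoco2, but its spread within TSa2i/L was wider and it did not pass the threshold of 0.05. The mean Glrx level was 22.1 ± 15.9 FPKM in TSa2i/L and 41.7 ± 25.7 in 2i-14, a log2 difference of -1.03 ± 0.61 with an adjusted p of 0.404. The 95% interval for Glrx, from -2.39 to 0.34, included both no difference and a difference as large as that of Calcoco2.

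4930550L24Rik averaged 0.782 ± 0.543 FPKM in TSa2i/L and 6.13 ± 1.38 in 2i-14, with a log2 difference of -2.03 ± 0.28 and an adjusted p of 0.00471. Both 2i-14 libraries, where it is higher, sufficed to let it enter the fit. TSa2i-14 passage 54 was the only TSa2i/L library at 1 FPKM or more, so 4930550L24Rik is not counted with the others. Of the 3 genes at 1 FPKM or more in all 7 libraries, 1, Calcoco2, was called lower in TSa2i/L. Over all genes, 121 or 1.13% were called lower. Ordered from the most negative log2 difference, 4930550L24Rik stood 22nd, Calcoco2 24th, Cd3g 28th and Glrx 177th of 10755. All 5 TSa2i/L values lay below both 2i-14 values for Calcoco2 and Cd3g, but not for Glrx. The same was true of 8.53% of all genes tested, and of 4930550L24Rik, which is not counted here.

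The Calcoco2 call held in each of 17 alternative fits, with adjusted p from 0.00106 to 0.0240. The 4930550L24Rik call was lost without 2i-14 passage 39, with a log2 difference of -1.83 and an adjusted p of 0.0545, and was kept in the other 14 of 15 fits that held the gene, where the lowest adjusted p was 0.000960. Cd3g passed the threshold without TSa2i-14 passage 54, with a log2 difference of -2.27 and an adjusted p of 0.0325, in a range from 0.0284 to 0.276 over 17 fits. The Glrx difference moved from -0.37 without 2i-14 passage 39 to -1.68 without passage 18, and passed the threshold in 0 of 17 limma fits, at an unadjusted p of 0.125 in the main one.

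**Figure D2:**
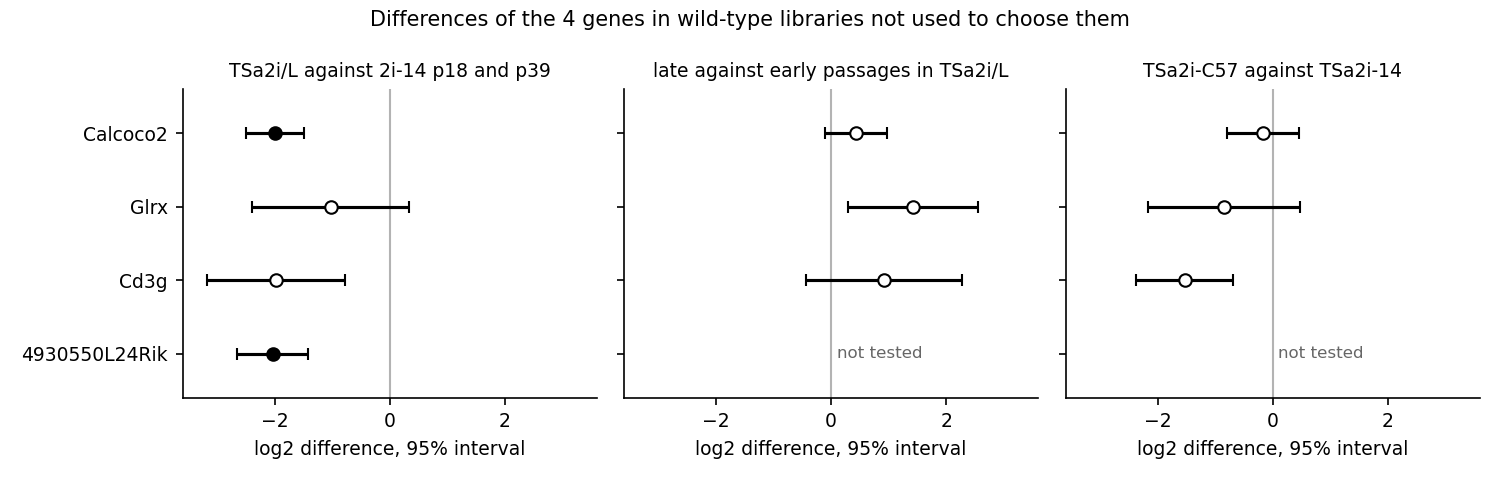
Points are limma log2 differences with 95% intervals on the x axis for the 4 genes in 3 comparisons of wild-type libraries, filled where the adjusted p was under 0.05. Calcoco2 at -1.99 and 4930550L24Rik at -2.03 are the filled points, both in the comparison of TSa2i/L with 2i-14. The 2i-14 libraries alone let 4930550L24Rik into that fit, and it was too low to be tested within TSa2i/L.

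The levels that remained in TSa2i/L were above those of the switched cells. The TSa2i/L mean was 7.84-fold the switched mean for Calcoco2, 5.03-fold for Glrx and 10.8-fold for Cd3g. No fold is given for 4930550L24Rik, which was listed at 0 in 2 of the 3 switched libraries. All 3 switched libraries lay below all 5 TSa2i/L libraries for Calcoco2, Cd3g and 4930550L24Rik. The same was found for 17.2% of 10285 genes at 1 FPKM or more in at least 3 of these 8 libraries, a set that 4930550L24Rik did not enter. Since the switched libraries were among those that chose the genes, these values carry no test. Of the 201 genes, 196 were tested in TSa2i/L against 2i-14, and 42 of these, 21.4%, were called lower there. Their median log2 difference was -0.63, against 0.04 for the 9479 other genes measured in both comparisons. Both comparisons subtract 2i-14 in 2i/L, at different passages, so they are not independent.

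**Figure D3:**
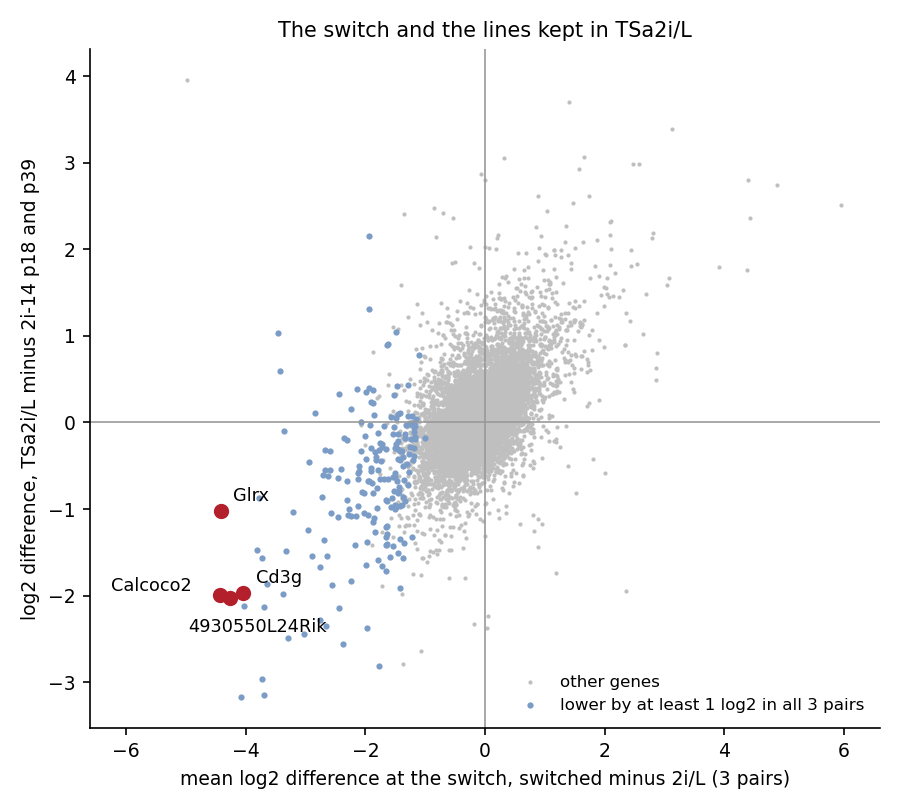
Each point is 1 of 9675 genes, with the mean log2 difference of the 3 lines across the transfer on the x axis. The y axis is the log2 difference between TSa2i/L and 2i-14 at passages 18 and 39. The 2 axes share no library, but 2i-14 in 2i/L is subtracted on y and in 1 of the 3 lines on x. Calcoco2, Cd3g and 4930550L24Rik lie close together near -2 on the y axis and Glrx lies at -1.03, all of them at smaller differences than on the x axis.

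Within TSa2i/L, passage and line were compared for the 3 genes that reached 1 FPKM in at least 2 of the 5 libraries. Between the 3 late libraries (passages 47, 54 and 58) and the 2 early ones (passages 22 and 9), none of the 3 was called, nor was any of 10502 genes (0%) by limma. Glrx had the largest difference of the 3, at 1.43 ± 0.49 log2 higher in late passages, with an unadjusted p of 0.0201 and an adjusted p of 0.530. The differences were 0.92 ± 0.58 for Cd3g and 0.43 ± 0.23 for Calcoco2. Summed fibroblast markers, given below, were 2.82, 134 and 40.3 FPKM in the late libraries at passages 47, 54 and 58. They were 9.70 and 1.74 FPKM in the early ones at passages 22 and 9. The fibroblast markers tested had a median difference of 1.33 log2, against 0.09 for all genes. Passage and fibroblast RNA were thus not separated here. Leaving out each library put Glrx between 0.81 and 2.04 log2, at 1.03 without TSa2i-14 passage 54. At an unadjusted p under 0.05 there were 928 genes, and without TSa2i-14 passage 47 the fit called 8.

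Between TSa2i-C57 and TSa2i-14, Cd3g was lower in both TSa2i-C57 libraries than in all 3 TSa2i-14 libraries. Its mean was 3.57 ± 0.0733 FPKM (SD, n = 2) in TSa2i-C57 and 13.2 ± 5.96 (SD, n = 3) in TSa2i-14. The log2 difference was -1.53 ± 0.38, with an unadjusted p of 0.00248 and an adjusted p of 0.792, the 9th most negative of 10502 genes. It did not pass the limma threshold, and 0% of all genes did, with 366 at an unadjusted p under 0.05; without TSa2i-14 passage 54 the fit called 9 and without TSa2i-C57 passage 9 it called 1. Calcoco2 differed by -0.17 ± 0.28 and Glrx by -0.85 ± 0.59, and both differences changed sign when TSa2i-C57 passage 9 was left out, to 0.26 and 0.11. The lines differ by derivation and passage as well as by name, and these cannot be told apart.

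In 2i-O48, which lacks the H19-DMR and the IG-DMR, each of the 4 genes was at its highest level of all 13 libraries. 2i-O48-TKO in 2i/L did not share this for Calcoco2, which was lowest there of the 5 libraries in 2i/L. It was next to 2i-O48 for Glrx and 4930550L24Rik. Each line had 1 library in 2i/L, both were among those that chose the genes, and no test was made. The deleted gene H19 was at 0.125 FPKM or less in all libraries but TSa2i-14 passages 22 and 54 and TSa2i-C57 passage 58, so its level gave no check of the deletion labels.

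Cd3g has a close neighbour of the same complex. Cd3d, which encodes the delta chain of CD3, starts 1361 bases from Cd3g on the opposite strand, and Cd3e, for the epsilon chain, lies beyond it. In 2i/L, Cd3d was 23.9, 21.2 and 6.36 FPKM in 2i-14 at passages 18, 39 and 50, 24.1 FPKM in 2i-O48 and, with H19 deleted too, 14.2 FPKM. After the transfer the same 3 lines stood at 0.132, 0.462 and 1.16 FPKM, which left 2.07%, 1.92% and 8.17%. Cd3d was thus lower in the same 3 lines as Cd3g; the share left in 2i-O48-TKO was larger than the 3.17% of Cd3g. In TSa2i/L it was 8.64, 13.7 and 16.1 FPKM in TSa2i-14 and 7.32 and 8.87 in TSa2i-C57. All 5 of these values lay above 2i-14 passage 50 and below passages 18 and 39, and the log2 difference from the latter was -1.03 ± 0.29 with an adjusted p of 0.0765.

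Cd3e was low in every library, from 0.0398 to 1.46 FPKM. It was called lower in TSa2i/L than in 2i-14 at passages 18 and 39, with a log2 difference of -0.85 ± 0.20 and an adjusted p of 0.0455, but entered that fit only through the 2i-14 libraries, both at 1.46 FPKM. The library preparation is not stated to keep the strand, so reads from overlapping transcripts could not be separated. In the gene models used, Cd3g overlapped neither Cd3d nor Cd3e. Of the 16 nearest annotated genes, 2 on each side of each of the 4 genes, 13 reached 1 FPKM in a library. Across the transfer 2 of the 16 were lower by at least 1 log2 in all 3 lines, as 2.06% of all genes were. These were Cd3d and Hoxb13, the second gene above Calcoco2 and a homeobox gene of the posterior body axis. Hoxb13 was 2.94 to 7.62 FPKM in 2i/L and 0.536 to 1.13 after the transfer. Genes under 1 FPKM, such as Cd3e in the lines before the transfer, cannot reach that bound on log2(FPKM + 1). Ttll6, the nearest gene above Calcoco2, was 0.295 to 0.574 FPKM in 2i/L and 0.0166 to 0.0940 after the transfer. Atp5g1 and Ube2z, on the other side of Calcoco2, differed by at most 0.54 log2 across the transfer, and Ube4a, next to Cd3g, by the same bound of 0.54. Atp5l was higher after the transfer in all 3 lines, by 0.45, 0.84 and 0.59 log2.

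**Figure D4:**
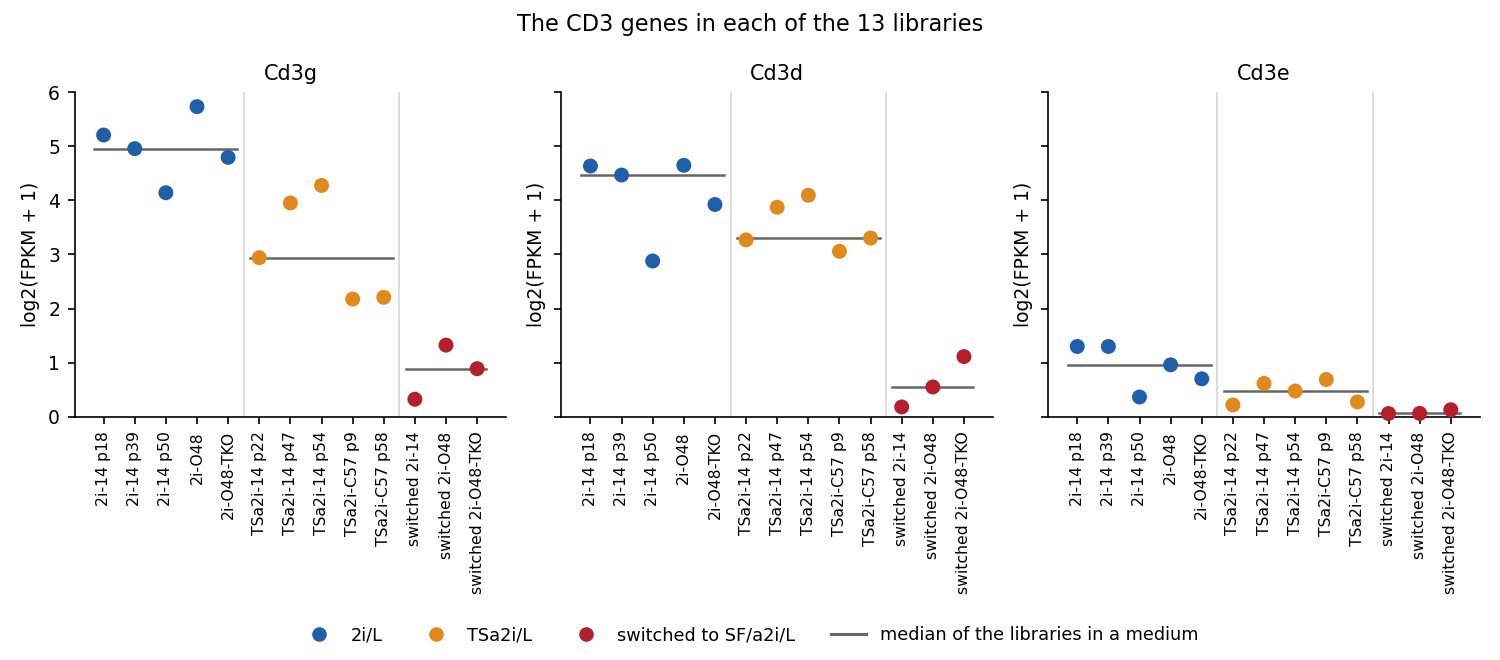
Points are the 13 libraries for Cd3g, Cd3d and Cd3e, with log2(FPKM + 1) on a common y axis, libraries on the x axis coloured by medium and a line at the median of each medium. Cd3g and Cd3d are both lowest in the 3 switched libraries, Cd3g is lower in TSa2i-C57 than in TSa2i-14, and Cd3e stays at or below 1.46 FPKM everywhere.

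Most other T cell genes were low in every library. Of 14 other T cell genes listed, 8 stayed under 1 FPKM in all 13 libraries, among them Cd4, Cd8a, Cd8b1, Cd5 and Cd28, with 0.374 FPKM as the highest value of any. Ptprc, which marks all white blood cells, and Cd247, the zeta chain of the receptor complex, were each listed at 0 in all but 1 library. The summed level of the 14 genes ranged from 25.1 to 46.8 FPKM in 2i/L, from 32.5 to 47.8 in TSa2i/L and from 24.8 to 35.7 after the transfer. Beside Cd3d, its larger parts were Lck, a Src family kinase, at 3.95 to 30.95 FPKM and the adaptor Lat at 3.10 to 11.4 FPKM. Of the 6 T cell genes that entered the fit of TSa2i/L against 2i-14, 5 were not called. The other was Cd3e, which entered only through the 2i-14 libraries where it is higher. Of all genes tested, 1.13% were called lower. The median log2 difference of the 6 genes was -0.07, against 0.04 for all genes. Of 10 markers of pluripotent cells, all were at 10.7 FPKM or more in every library.

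Among autophagy genes, 28 of 30 were tested in TSa2i/L against 2i-14 and 2 were called, both lower. Of all genes tested, 1.13% were called lower and 3.10% higher. Gabarapl2, an ATG8-family protein to which cargo receptors such as Calcoco2 can bind, was 434 and 610 FPKM in 2i-14 and 132 to 226 in TSa2i/L, a log2 difference of -1.65 ± 0.24 with an adjusted p of 0.00604. Atg14, a subunit of the lipid kinase complex that starts autophagosomes, was 21.4 and 17.5 FPKM in 2i-14 and 4.95 to 10.3 in TSa2i/L, a difference of -1.28 ± 0.30 with an adjusted p of 0.0425. The other 26 did not pass, and the median of the list was -0.01. Across the transfer Gabarapl2 was also the 1 gene of the list that was lower by at least 1 log2 in all 3 lines, as 2.06% of all genes were. It went from 540 to 120 FPKM in 2i-14, from 587 to 193 in 2i-O48 and from 404 to 154 FPKM with the H19 deletion added.

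Among glutaredoxin, thioredoxin and glutathione genes, 24 of 25 were tested in TSa2i/L against 2i-14 and 1 was called, lower. This was Prdx6, a peroxiredoxin that reduces lipid peroxides, at 654 and 455 FPKM in 2i-14 and 117 to 178 in TSa2i/L, a log2 difference of -1.88 ± 0.21 with an adjusted p of 0.00246. The other glutaredoxins were not called, at 0.31 ± 0.19 for Glrx2, -0.19 ± 0.18 for Glrx3 and -0.04 ± 0.19 for Glrx5. The median of the list was -0.09. Of all genes tested, 1.13% were called lower and 3.10% higher. Across the transfer Prdx6 and Gss, which makes glutathione, were lower by at least 1 log2 in all 3 lines, as 2.06% of all genes were. Gss went from 54.9 to 6.63 FPKM in 2i-14, from 40.7 to 10.2 FPKM in 2i-O48, and 2i-O48-TKO went from 51.9 to 10.8.

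Germline genes known to be silenced by promoter methylation were listed beside 4930550L24Rik. Of 20, 17 were tested in TSa2i/L against 2i-14; 1 was called lower, 3 were called higher, and 13 did not pass, with a median of -0.09. Dazl, an RNA-binding protein of germ cells, was 8.87 and 13.7 FPKM in 2i-14 and 1.69 to 4.95 in TSa2i/L, a log2 difference of -1.65 ± 0.31 with an adjusted p of 0.0174. Sycp3, a protein of the meiotic chromosome axis, was called in the other direction at 1.99 ± 0.43 with an adjusted p of 0.0319. It was 9.73 and 9.64 FPKM in 2i-14 at passages 18 and 39, and 22.4 to 93.2 FPKM in TSa2i/L. Other 2i/L libraries lay within that range, at 33.0 FPKM in 2i-14 passage 50 and 39.1 FPKM in 2i-O48-TKO, while 2i-O48 was at 8.75 FPKM. Ddx4 and Tdrkh were also called higher, each at 0.97 ± 0.22, but Tdrkh, at 0.253 and 0.514 FPKM in 2i-14, entered the fit only through the TSa2i/L libraries. Over all genes, 3.10% were called higher and 1.13% lower. Across the transfer Dazl and Tex101 were lower by at least 1 log2 in all 3 lines, as 2.06% of all genes were.

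The genes whose levels were most like those of each gene over the 13 libraries were found by Pearson's r of log2(FPKM + 1) among 11138 genes. The libraries share media and lines, so r is a description. For Calcoco2 they were Obox6 (r = 0.964), Klhl22 (0.959) and Htra1 (0.957). Obox6, a homeobox gene of oocytes and early embryos, was 95.6 to 137 FPKM in 2i/L, 19.96 to 36.2 in TSa2i/L and 2.71 to 9.55 after the transfer. For Cd3g they were Tcf7l1 (0.949), Klhl22 (0.942) and Tonsl (0.941). Tcf7l1, a repressor of Wnt target genes, was 6.74 to 9.65 FPKM in 2i/L, 3.01 to 5.47 in TSa2i/L and 1.59 to 3.43 after the transfer. For Glrx they were Lrrfip2 (0.923), Spic (0.922) and Rhox2a (0.917), of which Spic, an Ets family transcription factor, was 40.9 to 86.3 FPKM in 2i/L, 6.51 to 41.8 in TSa2i/L and 2.29 to 5.10 after the transfer. For 4930550L24Rik they were Gm773 (0.977), 6330410L21Rik (0.975) and Wfdc15a (0.972), each at most 1.14 FPKM in TSa2i/L.

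RNA of fibroblast feeders was uneven across the libraries. The summed level of 10 fibroblast markers was 60.7 FPKM in 2i-14 passage 39, 134 in TSa2i-14 passage 54, 40.3 in TSa2i-C57 passage 58 and 9.70 in TSa2i-14 passage 22, against 1.38 to 3.03 in the other 9 libraries. In the first 3 of these, 8, 9 and 6 of the 10 markers reached 1 FPKM. Col3a1 and Postn were both listed at 0 in 2i-14 at passages 18 and 50, in the 2i/L libraries of the lines with deletions, in TSa2i-14 passage 47 and in TSa2i-C57 passage 9. In each of these libraries 4 to 7 of the 10 markers were listed at 0, and the rest were not. Col1a1 was 0.380 to 1.59 FPKM in them, so they cannot be taken as free of fibroblast RNA. Glrx was highest in the library with the most fibroblast RNA in TSa2i-14, in TSa2i-C57 and in 2i-14 in 2i/L. 4930550L24Rik and Cd3g were highest in TSa2i-14 passage 54 among the TSa2i/L libraries. In 2i-14 passage 50, Glrx was 53.8 FPKM at a marker sum of 2.12 FPKM. 2i-O48 in 2i/L had the lowest marker sum of all libraries, at 1.38 FPKM, and the highest Glrx, at 178 FPKM. 2i-O48-TKO in 2i/L had a sum of 1.83 FPKM and Glrx at 95.2 FPKM. These 3 libraries were among those that chose the genes, and 2i-O48 and 2i-O48-TKO differ from 2i-14 in genotype. Without 2i-14 passage 39, TSa2i-14 passage 54 and TSa2i-C57 passage 58, TSa2i/L was compared with 2i-14 passage 18. The log2 difference was -2.19 for Calcoco2, -2.19 for Cd3g and -0.97 for Glrx. In this fit 2i-14 has 1 library, which is assumed to vary as the TSa2i/L libraries do, and 4930550L24Rik could not be tested. Calcoco2 and Cd3g differences were as large without these libraries. The Glrx difference was no larger than the -1.03 of the fit with all libraries. The 3 Glrx values left in TSa2i/L, at 5.85 to 16.7 FPKM, lay below the 23.6 FPKM of 2i-14 passage 18. With 1 library on that side, this shows no separation of groups. The part of fibroblast RNA in the Glrx values was not tested.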

How the data were processed

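Members were Calcoco2, Glrx, Cd3g and 4930550L24Rik, and they, the gene lists and the tests were chosen with earlier results of these data known. Of 41 samples, 13 RNA-seq libraries were used; 28 methylation and chromatin samples were not analysed here. Cells were sorted for haploid content and full-length cDNA was amplified from small cell numbers, which can add spread at low levels. The authors mapped reads to mm9 with TopHat (TopHat2 2.0.11 and Bowtie2 2.2.2 in the submitters' processing notes) and deposited FPKM values made with Cufflinks (2.2.1); the annotation and any scaling between libraries are not given in the sources used here. Since FPKM does not keep read numbers, models of counts were left aside.

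Rows of 1 symbol were summed (268 symbols had more than 1 row, none of them a member). Differences are on log2(FPKM + 1), which understates the change of low genes. Fits used limma 3.58.1 (R 4.3.3; variance modelled on intensity), two-sided tests and Benjamini-Hochberg adjustment at 0.05 over all genes at 1 FPKM or more in at least 2 libraries of the fit. Exact permutation of 5 against 2 libraries could not have passed an adjustment over all genes. Late passages are those above 30, the boundary used in the study. The transfer was described without a test, over genes at 1 FPKM or more in at least 3 of its 6 libraries. Implied depth is the number of fragments that put the low FPKM values of 3737 genes of at least 1500 bp nearest to whole fragments after 250 bp were taken off each length; 74.7% to 82.1% of low values lay within 0.12 of a whole fragment, so depth and fragment numbers are approximate, and 3 fragments were taken as the floor. Named genes were the 4 members, at most 4 called genes of each list with the largest differences, the 2 nearest annotated genes on each side, and the 3 genes most like each member; the genes ranked around the members, Tex101, Gss and the other glutaredoxins were named after their values were seen. Alternatives were a pseudocount of 0.1, no filter, a filter at a mean of 5 FPKM, median centring, quantile normalization, no trend, the highest row of a repeated symbol, the choice of libraries and leaving out each library. The fits were tried on simulated independent libraries with spread drawn from the TSa2i/L libraries. This cannot check the p-values for repeated passages of 1 line. Python 3.11.15 with pandas 2.3.3, numpy 2.4.6 and matplotlib 3.10.9 was used for tables and plots. 1 of the T cell markers first listed is not reported here and was left out of the counts.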

Additional observations from a re-analysis of the deposited data

Results flagged for a closer look

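Of 17 genes tested for a library far from the others of its group, the 4 members and 13 of their nearest neighbours, 2 were marked among the 5 TSa2i/L libraries, where chance would mark about 1 in 20. 4930550L24Rik was 1.74 FPKM in TSa2i-14 passage 54 against 0.389 to 0.653 in the other 4, a gap of 0.804 of the whole range. Hoxb13, a neighbour of Calcoco2, was 5.55 FPKM in TSa2i-C57 passage 58 against 1.02 to 1.84 in the other 4, a gap of 0.819 of the range. Both libraries also held fibroblast RNA, at 134 and 40.3 FPKM summed over the markers; its part in either value was not tested. Spata9, a neighbour of Glrx, was listed at 0 in the other 4 and at 0.386 FPKM in TSa2i-C57 passage 58, a gap of the whole range. It is counted in the 17 but was left out of the 2 because it was under 1 FPKM in every library.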

How the results depend on the processing

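The count of genes called between TSa2i/L and 2i-14 at passages 18 and 39 was 454, of which 73.3% were higher in TSa2i/L. It was 149 with no filter, 298 with a mean FPKM of at least 5, 769 with 2i-14 passage 50 added (a library that chose the members), 205 with TSa2i-14 alone and 164 without the 3 libraries with fibroblast RNA, an alternative chosen after seeing the data. Leaving out each library gave 99 to 524; the count was 99 without 2i-14 passage 39, 120 without passage 18 and 237 without TSa2i-14 passage 47. Median centring and quantile normalization left 57.7% and 58.6% of calls higher, but all 4 members stayed lower in TSa2i/L. Between late and early passages, leaving out each library gave 0 to 8 calls, with 8 without TSa2i-14 passage 47; between TSa2i-C57 and TSa2i-14 it gave 0 to 9, with 9 without TSa2i-14 passage 54 and 1 without TSa2i-C57 passage 9. Each alternative that keeps all libraries gave 0 in both; the cell line as a block, run for late against early passages alone, also gave 0. The count of genes lower by 1 log2 in all 3 lines across the transfer was 314 with a pseudocount of 0.1 in place of 201; all 4 members stayed in it under each of its alternatives. Of 141 alternative values for the members in the 3 fits, 136 kept their direction and side of the threshold, 1 lost a call (4930550L24Rik), 2 gained one (Cd3g) and 2 changed sign: between TSa2i-C57 and TSa2i-14 without TSa2i-C57 passage 9, Calcoco2 was at 0.26 and Glrx at 0.11, with ranges over libraries left out of -0.60 to 0.26 and -1.81 to 0.11. The cause was not tested. 4930550L24Rik could not be tested with a mean FPKM of at least 5, nor within TSa2i/L. No paired analysis was possible because the groups tested share no replicate numbers that name a common culture or day. Depth limits the values under 1 FPKM.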
